A study of Mus musculus with 27 samples.

Results

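The cytosolic ribosomal proteins are the protein parts of the ribosome that translates nuclear genes. They were taken from the array by symbol, as the genes starting with Rpl or Rps and a digit together with Rpsa, Rplp0, Rplp1 and Rplp2, without symbols ending in -ps and S6 kinases. The rule found 76 of 18820 named genes, of which 67 belong to the standard ribosome (42 in the large and 25 in the small subunit). The other 9 are paralogs of ribosomal proteins or only carry a like name. Among them are the retrogene Rps23rg1 and Rps4l. RefSeq lists Rps4l as a transcribed pseudogene, and it was tested and not called in either sex. Each gene was read from its probe set with the highest mean signal. 73 of the 76 passed the minimum signal and were tested, and Rpl10l, Rpl39l and Rpl3l, which are paralogs known mainly from testis or muscle, did not. Another 14 genes named by the rule had no probe set of their own and were not analysed here.

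Each ribosome joins a small subunit, which reads the mRNA, to a large subunit, which forms the peptide bond. Their mRNAs begin with a run of pyrimidines, the TOP motif, through which growth signals acting on mTOR set how much of each message is translated, so the amount of mRNA and the output of protein need not move together. In liver these genes are among the most strongly transcribed, and one of them, Rplp0 (also called 36B4), often serves as a reference in PCR.

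Liver RNA of C57Bl/6J pups aged 2 weeks was measured on the Affymetrix Mouse Gene 1.1 ST platform, each pup on an array of its own. Their dams ate a low fat diet (LFD, 10% of energy as fat, 18.0 mg cholesterol per kg) or a Western-style diet (WSD, 45% and 196.5 mg per kg) from 6 weeks before mating until the pups were killed, and all sires ate the control diet. LFD dams gave 6 sons and 9 daughters, WSD dams gave 6 of each sex, and no pup received any other treatment. The comparisons ask what the maternal diet did in each sex and whether the sexes differed in it. The labels do not name the litter of a pup, so p-values measure the spread between pups that may be littermates. The array names hold a number that the labels leave undefined, with 3 values on LFD (37, 49, 50) and 3 others on WSD (39, 40, 48), so that the number and the diet cannot be told apart. Albumin and 6 other hepatocyte genes were high on all 27 arrays, with Alb between 13.1 and 13.3 on the log2 scale. In whole liver, fewer cells of a type and less RNA per cell cannot be told apart.

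The start of the gene is shown for members the results turn on, since a TOP motif would lie there. Each line gives 15 bases before and 15 bases from the transcription start of RefSeq's first listed transcript on GRCm38.p6, 5′ to 3′ on the gene's strand, and capitals mark the longest pyrimidine run (C or T) that touches positions -5 to +5. Rpl10a, Rpl28, Rps26 and Rps27 fell in WSD females, Rps10 differed in response between the sexes, Rps23rg1 rose in WSD males, and Rplp0 is the PCR reference.
Rpl10a (chr17:28328456-28328485, plus strand): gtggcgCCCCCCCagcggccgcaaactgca
Rpl28 (chr7:4792950-4792979, plus strand): ccgcctctcgtgTCTCTCTTTCCgtctccg
Rps26 (chr10:128626492-128626521, minus strand): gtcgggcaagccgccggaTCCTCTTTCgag
Rps27 (chr3:90213634-90213663, minus strand): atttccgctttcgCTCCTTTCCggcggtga
Rps10 (chr17:27635230-27635259, minus strand): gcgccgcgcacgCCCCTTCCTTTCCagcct
Rps23rg1 (chr8:3567983-3568012, plus strand): gctttgcagagagTCTTTCTCTCaccccag
Rplp0 (chr5:115559452-115559481, plus strand): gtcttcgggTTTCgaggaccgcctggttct

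A window was given for 62 of the 76 members, and Rpl36, Rpl29 and Rpl3 have none in the table. A pyrimidine run of at least 8 bases touched positions -5 to +5 in 21 of the 62 (33.9%), against 9.26% of 17492 protein-coding genes. From 250 bases before to 50 after the start, CCGGAAG on either strand, the core bound by GABP and other ETS factors, stood in 25 of them (40.3%), against 11.9% of all. TATAAA on either strand at -40 to -16, where a TATA box would lie, was in 0 of 62 and in 3.32% of all. The 4 fallen members with a window had runs of 7, 11, 9 and 9 bases in the order printed, and Rps10 had one of 13. The median run was 5 bases over the 62 members and 3 over all protein-coding genes. Whether run length goes with the calls was not tested. The printed runs of Rpl10a and Rplp0 end before the annotated start, and that of Rps26 begins after it. A marked run thus need not be the first bases of the mRNA. These matches describe the letters in the windows and not whether a factor binds there.

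In females, maternal WSD went with a lower signal of a few ribosomal protein genes while most stayed within the spread between pups. At p of at most 0.01 (the threshold of the study, limma, not adjusted) 6 members fell and 1 rose, where 1.48% of the 13279 genes tested fell and 3.66% rose (5.14% in all). The fallen genes were Rpl36, Rpl10a, Rpl28 and Rpl29 of the large subunit and Rps26 and Rps27 of the small, and the gene that rose was Rpl3. With p-values adjusted by Benjamini and Hochberg over all genes tested, Rpl36 alone was under 0.05, as were 0.294% of all genes. For 38 of the 73 tested members the WSD mean was above the LFD mean (52.1%, against 56.4% of all genes), and their median log2 difference was 0.00436, against 0.0132 over all genes. The groups overlapped for every member in both sexes, where 0.414% of all genes in females and 1.2% in males had groups that did not.

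Rpl36 (chr17:56610094-56614246 on GRCm38.p6) encodes a protein of the large subunit. Its log2 signal ran from 11.37 to 11.56 (median 11.47, n = 9) in LFD females and from 11.15 to 11.39 (median 11.23, n = 6) in WSD females. The ranges barely overlapped, since 5 of the 6 WSD females lay below every LFD female and only WSD female 1, at 11.39, reached the lowest LFD values. On the log2 scale the mean fell by 0.21 (SE 0.04), so the signal fell by 13.8% (limma, adjusted p = 0.0264). The male ranges covered each other, 11.30 to 11.55 (median 11.43) in the LFD group and 11.29 to 11.60 (median 11.48) in the WSD group, with a log2 difference of 0.03 (95% interval -0.07 to 0.13).

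Rpl10a encodes a protein of the L1 stalk, which handles the tRNA as it leaves the ribosome. Its log2 signal was 11.22 to 11.45 (median 11.37) in LFD females and 11.05 to 11.29 (median 11.20) in WSD females. LFD females 2 and 3 lay within the WSD range and the other LFD females above it. The mean fell by 0.18 on the log2 scale (SE 0.04, limma, adjusted p = 0.0654), and in males the difference was -0.01 (SE 0.05).

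Rpl28, which animals have and budding yeast lacks, had log2 signals of 11.87 to 12.04 (median 11.97) in LFD females and 11.77 to 11.91 (median 11.84) in WSD females. It fell by 0.13 on the log2 scale (SE 0.04, limma, adjusted p = 0.121). The ranges overlapped at their edges, and the change was the smallest of the 6 that fell.

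Rpl29, a small basic protein also found at the cell surface as a heparin-binding protein, had log2 signals of 11.38 to 11.72 (median 11.68) in LFD females and 11.28 to 11.47 (median 11.42) in WSD females. It fell by 0.21 (SE 0.07, limma, adjusted p = 0.168). LFD females 2 and 3 again lay within the WSD range and the other LFD females above it.

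Of the small subunit, Rps26 lies at the channel where the mRNA leaves the ribosome. Its log2 signal spread widely, from 11.13 to 11.59 (median 11.43) in LFD females and from 10.999 to 11.33 (median 11.17) in WSD females. The groups overlapped over much of that span, and the mean fell by 0.24 on the log2 scale (SE 0.08, limma, adjusted p = 0.173), the lowest change of any tested member in either sex. Rps27, a zinc finger protein, had log2 signals of 8.35 to 8.78 (median 8.59) in LFD females and 8.24 to 8.51 (median 8.39) in WSD females. It fell by 0.22 (SE 0.07, limma, adjusted p = 0.159), with 4 of the 6 WSD females inside the lower part of the LFD range and WSD females 2 and 4 below it.

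Rpl3, which sits close to the centre that forms the peptide bond, went the other way. Its log2 signal was 10.84 to 11.34 (median 11.03) in LFD females and 11.21 to 11.35 (median 11.33) in WSD females. It rose by 0.21 on the log2 scale (SE 0.07, limma, adjusted p = 0.157). The WSD females other than WSD female 4 were close together at the top of the range, whereas the LFD females were spread over the whole of it, with a gap between 11.03 (LFD female 7) and 11.21 (LFD female 4). In males the difference was 0.10 (95% interval -0.05 to 0.26).

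**Figure D1:**
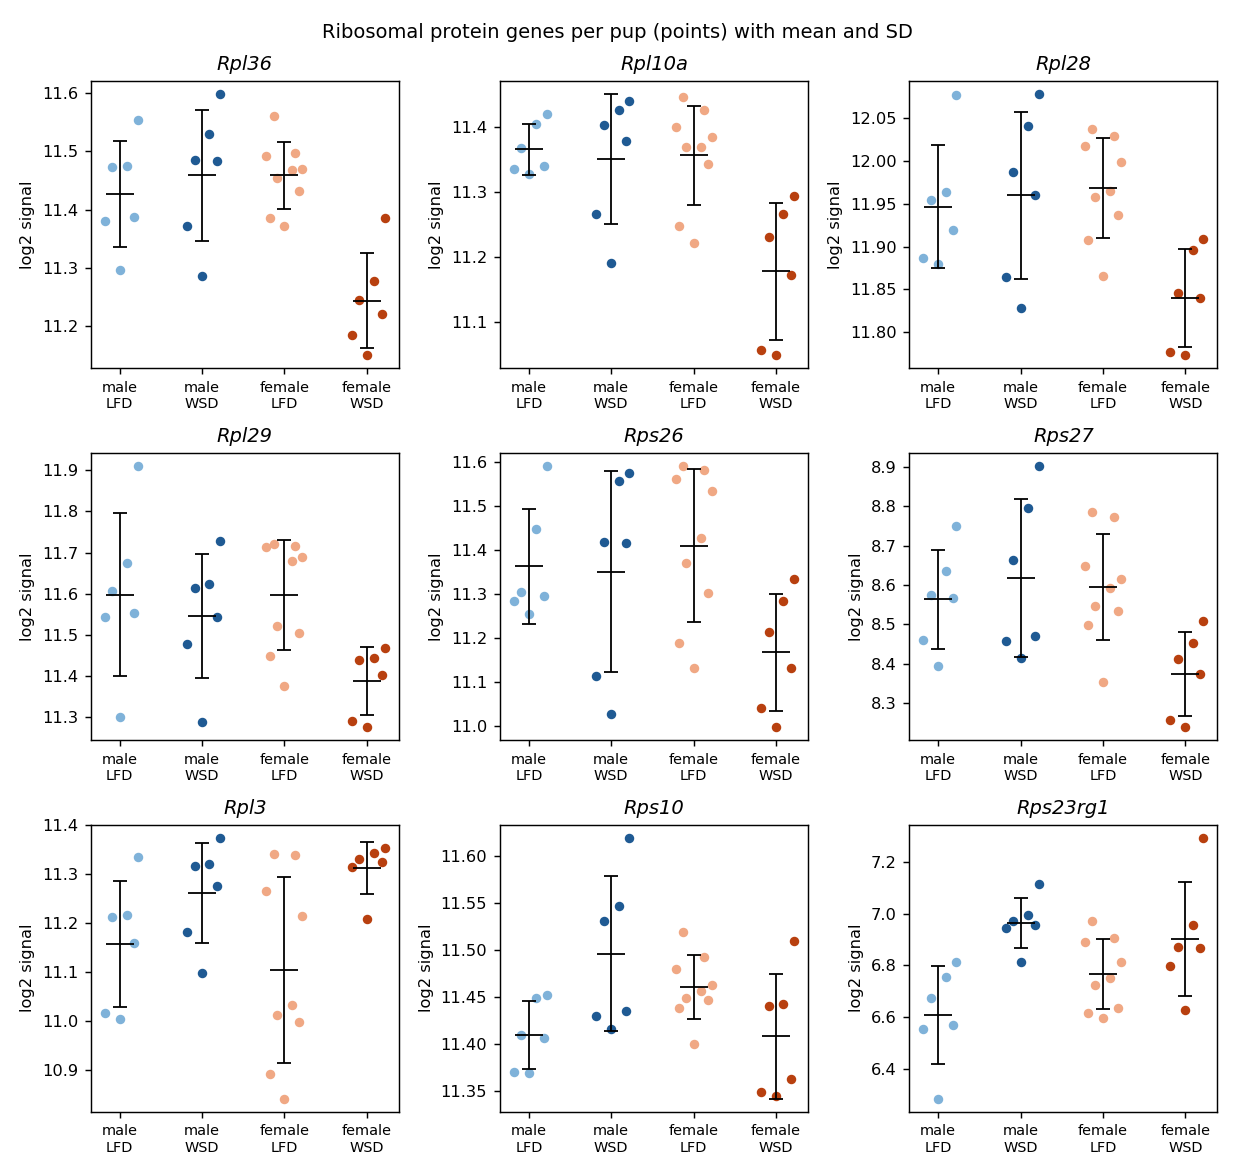
Log2 signal (y axis) of 9 ribosomal protein genes in each of the 27 pups, by sex and maternal diet (x axis), with bars for the mean and SD of each group. WSD females lie low for Rpl36, with 5 of 6 pups below every LFD female, while the male groups cover each other.

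The LFD pups were not alike in these genes across the numbers in the array names. The 5 LFD pups with number 37 had log2 signals of Rpl29 from 11.30 to 11.55, the 6 with number 49 from 11.52 to 11.72 and the 4 with number 50 from 11.67 to 11.91. For Rpl3 the order was reversed, with medians of 11.34, 11.12 and 11.001. Rpl36 had medians of 11.39, 11.45 and 11.51 over the same numbers. Without the pups of number 37 the female log2 differences were -0.29 for Rpl29, -0.31 for Rps26 and 0.31 for Rpl3 (limma, adjusted p = 0.0262, 0.0728 and 0.0102). Without number 49 they were -0.16, -0.22 and 0.16, none at p of at most 0.01. None of the 3 was called without number 39, 48 or 50 either, nor Rps26 without number 40, with differences from -0.20 to -0.18 for Rpl29, from -0.25 to -0.20 for Rps26 and from 0.16 to 0.20 for Rpl3. Rps27 was not called without number 39, 40 or 49, nor Rpl28 without number 49.

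Leaving out single pups touched some of these calls. Rpl29 was not called when any one of LFD females 5 to 9 or WSD females 2, 5 and 6 was left out, nor Rps26 when any one of LFD females 5 to 9 or WSD females 2, 3 and 6 was left out (log2 differences of -0.24 to -0.19 and of -0.28 to -0.21 over all pups left out). Rps27 was not called without LFD female 1 or 4 or WSD female 2 or 4 (-0.25 to -0.19 over all pups left out), and Rpl3 not without LFD female 5 or 8 or WSD female 3 or 6 (0.18 to 0.24). Rpl28 held without each pup. Rpl36 kept p of at most 0.01 in females in all 49 settings tried and Rpl10a in 48 of 49, all but the arrays of name prefix G073 alone. With the number as a random block (correlation 0.08) 3.74% of all genes were called in females, and of the 7 members Rps27 was no longer called.

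Among the males, in which none of these genes was called, some pups stood at one end for the genes that fell in females and at the other for Rpl3. LFD male 5 was the highest LFD male for Rpl36, Rpl10a, Rpl28, Rpl29 and Rps26 and the lowest for Rpl3. WSD male 4 was the lowest WSD male for Rpl36, Rpl10a, Rpl29, Rps26 and Rps27 and the highest for Rpl3. WSD female 6 was the lowest WSD female for Rpl10a, Rpl28 and Rps26 and the highest for Rpl3. The lowest was WSD female 2 for Rpl36 and Rpl29 and WSD female 4 for Rps27. Among the LFD females no single pup did so. The highest LFD female was female 9 for Rpl36 and Rpl10a, 7 for Rpl28, 6 for Rpl29, 5 for Rps26 and 4 for Rps27. Their lowest for Rpl3 was female 8. LFD female 2 was the lowest for Rpl28, Rpl29 and Rps26, but LFD female 1 was the highest for Rpl3. Over all 73 tested members 2 females stood out, LFD female 1 as the highest of its group for 42 members and WSD female 4 as the lowest of its group for 37, where an equal share would be 8.1 and 12.2. Without LFD female 1 the counts in females were 5 that rose and 5 that fell, and without WSD female 4 they were 3 and 5.

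In males, no gene of the standard ribosome passed the test of maternal WSD against LFD, and the only member that did was the retrogene Rps23rg1. At p of at most 0.01 (limma, not adjusted) 1 of 73 members rose and 0 fell, against 2.79% and 2.34% (together 5.14%) of all genes tested, and 0 members had an adjusted p under 0.05, against 0.452% of all genes. The WSD mean was above the LFD mean for 61 of 73 members (83.6%), against 52.5% of all genes. The members' median log2 difference was 0.0529, against 0.00522 over all genes and -0.00107 over the 4394 genes with a mean log2 signal of at least 8. The members' median was 0.0339 without WSD male 2 and 0.0295 without the pups of number 40. Single pups stood high or low in many members at once, so this count is a description of these 12 males.

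Rps23rg1, a mouse gene that arose from a reverse-transcribed copy of Rps23 mRNA and is no part of the standard ribosome, was the member that rose. Its log2 signal was 6.28 to 6.81 (median 6.62) in LFD males and 6.81 to 7.11 (median 6.96) in WSD males, so the highest LFD male and the lowest WSD male met at the same value. It rose by 0.36 on the log2 scale (SE 0.09), a signal 28.1% higher (limma, adjusted p = 0.0654). LFD females had 6.60 to 6.97 and WSD females 6.63 to 7.29, with a difference of 0.14 (95% interval -0.03 to 0.30), and the responses of the sexes differed by 0.22 (SE 0.12, limma, adjusted p = 0.57). Without the pups of number 37 the male change was 0.26 and not called (limma, adjusted p = 0.31). Rps23 itself did not pass the test in either sex, with log2 differences of 0.04 in males and -0.06 in females.

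Rpl22, a protein the ribosome can do without, had the highest log2 difference in males among the standard ribosome, 0.20 (SE 0.08, limma, adjusted p = 0.217), and was singled out after its values were seen. Its log2 signal was 6.73 to 7.09 in LFD males and 7.02 to 7.35 in WSD males. Rps25, which some viral mRNAs need to start translation, had nearly equal differences of 0.17 in males and 0.17 in females (SE 0.08 and 0.07, limma, adjusted p = 0.292 and 0.251). The lowest male difference was that of Rps27l, the paralog of Rps27 that p53 induces, at -0.07 (SE 0.05).

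The members' level in each pup was summarised as the median over the 73 of the deviation from each gene's mean. It ran from -0.02 to 0.01 in LFD males and from -0.01 to 0.08 in WSD males, and 5 of the 6 WSD males lay above every LFD male. LFD females had -0.05 to 0.11 and WSD females -0.10 to 0.02, with LFD female 1 highest and WSD female 4 lowest of all pups. Over the genes with a mean log2 signal of at least 8 the same measure ran from -0.02 to 0.04 in LFD males and from -0.04 to 0.02 in WSD males, so these ranges overlapped.

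**Figure D2:**
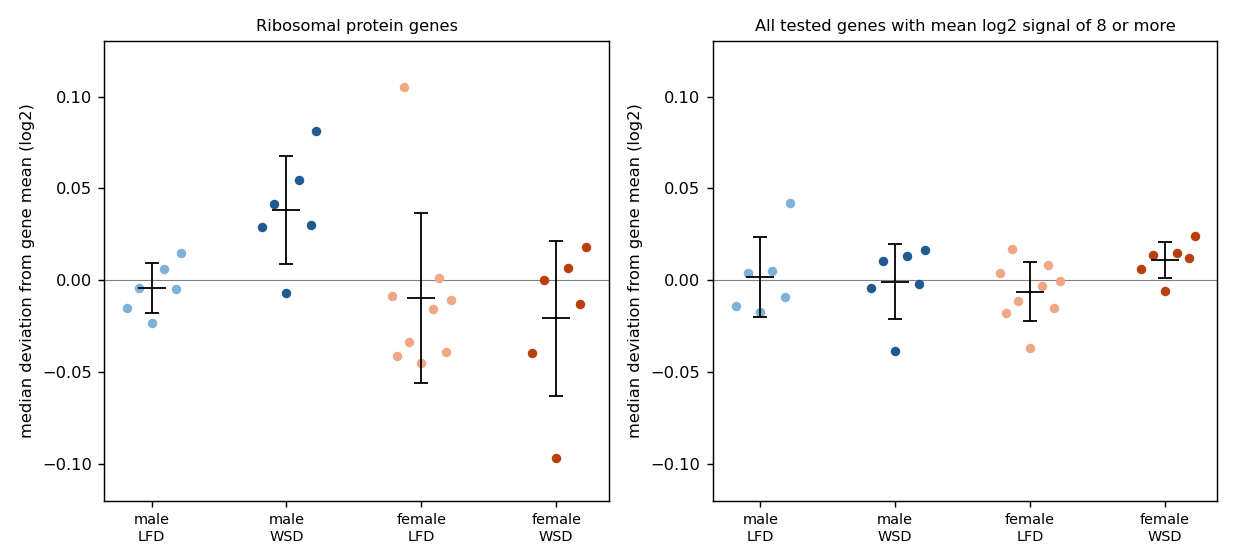
Median log2 deviation from each gene's mean over 27 pups (y axis) for the 73 tested ribosomal protein genes (left) and for the 4394 genes with a mean log2 signal of at least 8 (right), 1 point per pup with group mean and SD. In the left panel 5 of 6 WSD males lie above all LFD males, and LFD female 1 (0.11) and WSD female 4 (-0.10) lie at the ends.

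By subunit, 35 of 42 large subunit genes and 23 of 25 small subunit genes had a higher mean on WSD in males, with median log2 differences of 0.05 and 0.06. In females the counts were 24 of 42 and 10 of 25, with medians of 0.01 and -0.03. Of the P stalk, whose Rplp1 and Rplp2 recruit the elongation factors and are held by Rplp0, none was called in either sex. Rplp0 had log2 signals of 11.79 to 12.01 in LFD males, 11.83 to 12.05 in WSD males, 11.77 to 12.05 in LFD females and 11.87 to 12.03 in WSD females. These ranges covered each other, and its differences were 0.00 (95% interval -0.09 to 0.10) in males and 0.04 (-0.05 to 0.13) in females. The sign of these small differences turned with the probe set: the one numbered at Rplp0 itself gave -0.02 in males and -0.05 in females, and 3 of its 4 probe sets lay below 0 in females. Rplp2 had log2 differences of 0.10 in males and -0.10 in females (SE 0.07 for both, limma, adjusted p = 0.594 and 0.505). Its only probe set was close to the minimum signal, with a mean log2 signal of 5.09, against 11.9 for Rplp0 and 11.7 for Rplp1. Its differences are uncertain for that reason.

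Of the genes mutated in Diamond-Blackfan anaemia, an inherited failure of red cell production, 17 were tested. In males 0 of them were called and 16 of 17 lay above 0, where 5.14% of all genes were called and 52.5% lay above 0. In females Rps26 and Rps27 fell, 0 rose and 7 of 17 lay above 0, against 1.48%, 3.66% and 56.4% of all genes. Of 9 ribosomal proteins that bind MDM2 or p53 when ribosome assembly is disturbed, among them Rpl5 and Rpl11, none was called in either sex, with medians of 0.05 in males and 0.02 in females.

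The members varied less from pup to pup than genes at large. Their median SD within groups was 0.0858 on the log2 scale, against 0.119 over all genes tested. With a mean log2 signal of at least 8 it was 0.0824 over 64 members and 0.0932 over all such genes. Rps2 was the steadiest (SD 0.04) and Rpl36a the least steady (SD 0.19). An interquartile range under 0.1, the bound of the study's filter, was seen for 28 of the 73 members (38.4%), against 18.6% of all genes. The study filtered redefined probe sets, so these values do not tell which members it removed. With a mean log2 signal of at least 8 the shares were 43.8% of the 64 members and 33.3% of all such genes.

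The test of the difference between the sexes in their response called 2 members at p of at most 0.01, both with the higher response in males, where 2.45% of all genes were called (1.17% with the higher response in males and 1.28% in females), and neither had an adjusted p under 0.05, as 0 of the 13279 genes had. The members' share of 2 in 73 is thus near that of all genes. For Rpl36, whose values are given above, the male response exceeded the female response by 0.25 on the log2 scale (SE 0.07, limma, adjusted p = 0.341). Rps10, which sits where the mRNA enters the ribosome and is tagged with ubiquitin when ribosomes collide, had log2 signals of 11.37 to 11.45 in LFD males, 11.42 to 11.62 in WSD males, 11.40 to 11.52 in LFD females and 11.34 to 11.51 in WSD females. The WSD males reached above the LFD males and the WSD females below the LFD females, with overlap in both sexes. Its response differed by 0.14 (SE 0.05, limma, adjusted p = 0.395), while its differences of 0.09 in males and -0.05 in females did not pass the test on their own. It was called in 30 of 47 settings and Rpl36 in 44 of 48. Without the pups of number 40 it was 0.07, and it was not called when any one of LFD males 1 and 4, WSD males 1 to 3 and WSD females 3 to 5 was left out. The response was higher in males for 58 of 73 members (79.5%), against 46.6% of all genes, for 24 of 25 of the small subunit and for 30 of 42 of the large.

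**Figure D3:**
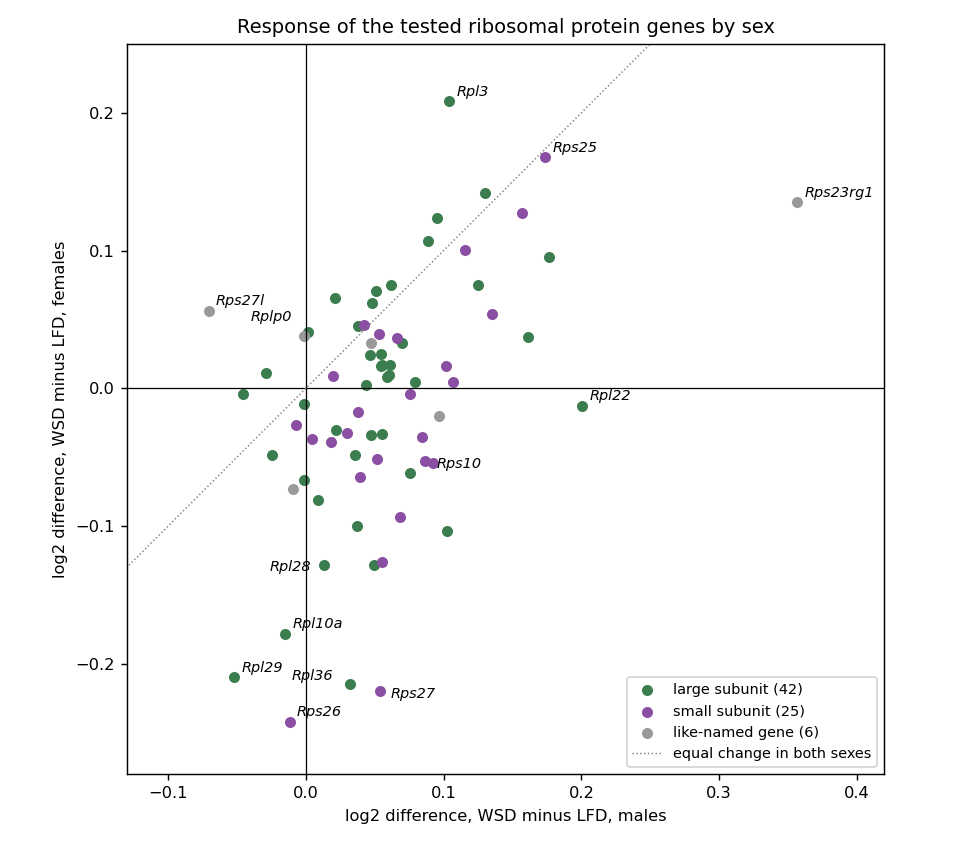
Log2 difference of WSD minus LFD in males (x axis) and females (y axis) for the 73 tested genes, coloured by subunit, with a dotted line where both sexes would change alike. Most points lie right of 0, the 6 genes that fell in females lie at the bottom near 0 on the male axis, and Rps23rg1 lies apart at 0.36.

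Between the sexes on WSD, 10 members were higher in males and 0 lower at p of at most 0.01, against 1.08% and 2.18% (3.25% in all) of all genes, and 0 had an adjusted p under 0.05, against 0.128%. They were Rpl10a, Rpl23a, Rpl27a, Rpl28, Rpl35, Rpl36, Rpl37, Rps15a, Rps27 and Rps28. Rpl36 had the smallest p, with a log2 difference of 0.21 (SE 0.05, limma, adjusted p = 0.0761), and Rps27 the largest difference, 0.24 (SE 0.08, limma, adjusted p = 0.258). Rpl27a, for one, had log2 signals of 10.21 to 10.51 (median 10.37) in WSD males and 10.08 to 10.28 (median 10.17) in WSD females, ranges that overlapped at the low males and high females, and it differed by 0.18 (SE 0.05, limma, adjusted p = 0.206). On WSD 60 of 73 members had the higher mean in males, against 42.4% of all genes. On LFD 2 members were higher in males and 0 lower, against 0.459% and 0.881% (1.34% in all) of all genes, and 0 had an adjusted p under 0.05, against 0.0602%. They were Rps27l by 0.16 (SE 0.04) and Rpl41, the shortest protein of the ribosome, by 0.10 (SE 0.03, limma, adjusted p = 0.68 and 0.693). On LFD 37 of 73 members had the higher mean in males (50.7%), against 46.2% of all genes. These comparisons use the same WSD and LFD pups as the comparisons of diet. The count on WSD fell to 4 without WSD male 2, to 5 without WSD female 4 and to 1 without the pups of number 40.

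Ribosomal protein genes have many near-identical processed copies in the genome, so the place a probe set was designed for was checked. Probe sets of this array are numbered in genome order, and of 17406 genes with a single probe set 99.5% were numbered among neighbours of their own gene. The 76 members had 387 probe sets, 56 members had several and Rpl21 had 41. Their highest probe set was numbered at the gene itself for 31 members and elsewhere for 45, as for Rplp0, which lies on chromosome 5 while its highest probe set is numbered among genes of chromosome 16. Of the genes called in females, the same held for Rpl36, Rpl10a, Rpl28 and Rpl29, numbered among genes of chromosomes 11, 1, 4 and 18. Such values may contain signal of copies and are uncertain in that respect.

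For the genes called in females the direction of the difference did not depend on the choice of probe set. All 10 probe sets of Rpl36, 24 of Rpl29, 5 of Rpl28, 4 of Rpl10a, 3 of Rps26 and 2 of Rps27 had a lower mean in WSD females, and all 6 of Rpl3 a higher one. Probe sets of a gene can share probes and are not independent. None of the 24 of Rpl29 is numbered at the gene itself, so its value could not be checked there. With the probe set numbered at the gene itself wherever there was one, the female log2 difference was -0.22 for Rpl36 and -0.18 for Rpl10a (limma, adjusted p = 0.0281 and 0.0462). Under that choice, made after the data were seen, 8 members fell in females, Rps15 (-0.20) and Rpl27a (-0.14) being added, and 1 rose, while the counts in males stayed at 1 and 0. Other calls did change with it. The response of Rps10 differed by 0.12 and was not called. Rps15a, higher in WSD males than in WSD females by 0.16, was lower by the probe set at its own gene (-0.07). That probe set was dimmer than the highest one of Rps15a, with a mean log2 signal of 6.25 against 8.97. Of its 3 probe sets, 2 had a higher mean in WSD than in LFD males, and the one at the gene itself a lower one (-0.17).

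**Figure D4:**
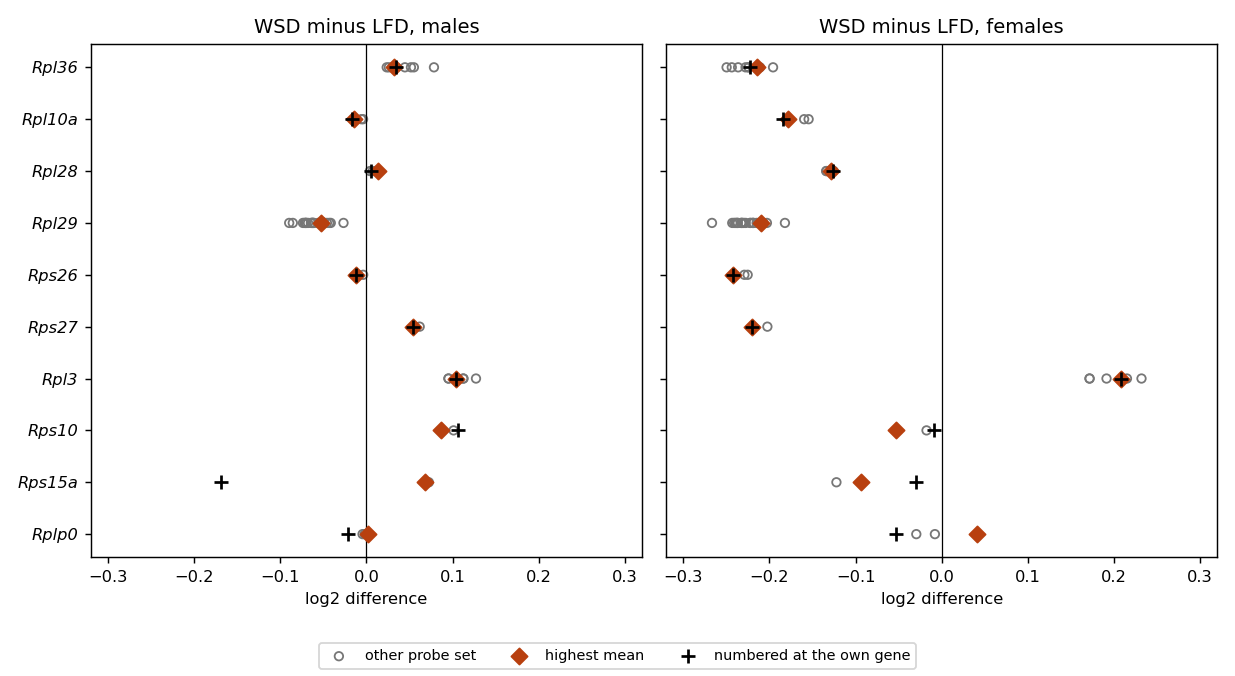
Log2 difference of WSD minus LFD (x axis) in males (left) and females (right) for every probe set above the minimum signal of 10 genes, with a diamond for the one with the highest mean and a cross for the one numbered at the gene itself. For the 6 genes that fell in females all probe sets lie left of 0 in females, and for Rps15a the cross lies apart from the diamond in males. Rpl29 has no cross, since none of its probe sets is numbered at the gene itself.

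Other genes of translation and ribosome making were read from lists, whose counts stand against 2.79% of all genes that rose and 2.34% that fell in males and 3.66% and 1.48% in females. Of 23 tested partners that share the TOP motif or the ribosome, 2 rose in males, Eif4b (0.19, SE 0.06), an initiation factor, and Naca (0.13, SE 0.04), which shields new proteins at the tunnel exit (limma, adjusted p = 0.139 and 0.142). In females 1 fell, Fau (-0.12, SE 0.04, limma, adjusted p = 0.145), which encodes the small subunit protein S30 fused to a ubiquitin-like protein. The response of Fau differed between the sexes by 0.19 (SE 0.06) and that of Naca by 0.16 (SE 0.06, limma, adjusted p = 0.381 and 0.405). The medians of the list were 0.05 in males and 0.01 in females.

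Of 37 ribosome biogenesis genes, Ncl (nucleolin) rose in males by 0.14 (SE 0.05) and in females by 0.13 (SE 0.04), and Brix1, needed to build the large subunit, rose in females by 0.33 (SE 0.09; limma, adjusted p = 0.169, 0.159 and 0.101). Ncl is among genes the study picked on these same pups. None fell, and 33 of 37 lay above 0 in females and 18 of 37 in males, with medians of 0.06 and -0.01. Of 25 subunits and factors of RNA polymerases I and III, 0 were called in males, and in females Polr3d rose by 0.22 (SE 0.07) while Polr2e, shared by all nuclear polymerases, fell by 0.29 (SE 0.10, limma, adjusted p = 0.131 and 0.172). Of 27 growth regulators of these genes, the mTORC1 inhibitor Tsc1 rose by 0.19 and the mTOR subunit Mlst8 fell by 0.16 in males, and the mTORC1 activator Rheb rose by 0.15 in females (limma, adjusted p = 0.118, 0.164 and 0.173). Of 14 genes of the p53 arm of nucleolar stress none was called in either sex.

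Markers of other cells were read against the same shares of all genes, 2.79% up and 2.34% down in males. Of the B and T lymphocyte genes, 12 were tested, and in males 5 of these rose while 0 fell. All 5 are genes of the B lineage, led by Igll1 (1.14, SE 0.26, limma, adjusted p = 0.0419). The log2 summed level of the list ran from 9.16 to 10.4 in LFD males and from 9.90 to 10.5 in WSD males. LFD male 6 alone set the top of the LFD range, and LFD male 2 was next at 9.56. Of 17 neutrophil and myeloid markers 4 rose and 0 fell, with summed levels of 9.77 to 11.3 and 10.3 to 10.99. Of 22 cell cycle genes 3 fell in males and all 22 lay below 0. The lymphocyte markers Vpreb1, Cd3d and Dntt were under the minimum signal. In females no lymphocyte or neutrophil marker was called, 1 of 22 cell cycle genes rose (Mcm6, 0.25), and of 16 hepatocyte markers 1 fell (Apoa2, -0.09). Of 12 Kupffer cell markers 1 fell in males (Cd163, -0.59), and all 12 lay below 0. Of 12 of liver endothelium 1 fell (Clec4g, -0.38) and 6 lay above 0, and of 12 of stellate cells and fibroblasts 2 fell (Reln, -0.22, and Lrat, -0.24) and 6 lay above 0. Of 4 of cholangiocytes 1 rose in males (Sox9, 0.43) while the other 3 lay below 0 (list median -0.22). None of these 4 lists had a call in females. Of 10 erythroid markers 1 rose in females (Tfrc, 0.18), while 8 of the 10 lay below 0 (list median -0.09). The part of these cells in the members' values was not tested.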

How the data were processed

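Each of 27 livers has 1 array. The deposited values are log2 signals per probe set; RMA at default settings, as run by the authors, corrects background, aligns the arrays' quantiles and summarises probes, so a shift shared by all genes is removed; they are of the array's own probe sets and not the redefined ones of the methods. Of 35556 probe sets 21218 named 1 gene, 1881 several and 12457 none here; symbols were updated by Entrez ID. A gene took its single-gene probe set with the highest mean. Genes reaching an intensity of 20 on 4 or more arrays (13279) entered 1 linear model (limma 3.58.1 under R 4.3.3) with a mean for each group, an intensity trend and empirical Bayes, the nearest form of the methods' moderated statistic. A call is p of at most 0.01, the study's threshold; adjusted p-values are Benjamini-Hochberg over all genes of a comparison. The study's filter on the interquartile range (0.1) is an alternative, since it drops steady genes. For arrays no counting depth applies, and the number of arrays limits the precision. The fit was tested on simulated data. Members and lists were chosen with earlier results of these data known. Named were called members, the P stalk, role lists, extremes per sex, the smallest p per sex comparison and up to 3 called genes per list. Sequences are RefSeq's (GRCm38.p6); the figures were drawn in matplotlib.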

Additional observations from a re-analysis of the deposited data

Results flagged for a closer look

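Rpl3 in WSD females had 1 pup far from the others: WSD female 4 lay at 11.2 on the log2 scale (11.21 to 2 decimals) and the other 5 between 11.31 and 11.35. The members' median deviation had 1 in LFD females, where LFD female 1 lay at 0.105 and the next pup at 0.00. These were 2 of 52 groups examined over 13 measures, and chance flags about 1 in 20. The response to maternal WSD differed between males and females for Rpl36, by 0.246 (0.03 in males and -0.21 in females), and for Rps10, by 0.139 (0.09 and -0.05), with adjusted p of 0.341 and 0.395 in limma. These are 2 of 73 members, near the 2.45% of all genes called in that comparison, and 0 of 13279 genes had an adjusted p under 0.05.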

How the results depend on the processing

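The 22 named changes were recomputed under up to 22 alternatives and without each pup in turn: of 1061 values 877 kept direction and call, 183 kept direction only, and 1 reversed, Rps15a between the sexes on WSD (-0.0705) by the probe set at its own gene. That probe set had a mean log2 signal of 6.25, against 8.97 for the highest one of Rps15a. The cause of the changes below was not tested. Of the counts, members that rose in males (1) were 2 with each sex fitted alone, with the array name prefix as a block and without number 40 or 48, 3 without LFD male 6 and WSD male 1 and with the mean of a gene's probe sets, and 0 within prefix G073, without number 37 and at an adjusted p under 0.05; leaving out each pup gave 1 to 3. Members that rose in females (1) were 2 with array weights, repeated quantile normalisation, the prefix as a block, without number 40 and without LFD male 6 and WSD male 1, 6 within prefix G074, 7 without number 37, and 0 with the replicate block, without number 39, 48, 49 or 50 and at an adjusted p under 0.05; leaving out each pup gave 0 (without LFD female 5 or 8 or WSD female 6) to 5. Members that fell in females (6) were 2 with the replicate block, within G073, within G074 and without number 49, and 1 at an adjusted p under 0.05; leaving out each pup gave 4 to 7. Members whose response differed (2) were 1 with the study's filter on the interquartile range, without the intensity trend, without number 37, without LFD male 6 and WSD male 1 and by the own probe set, 4 with array weights and without number 50, 7 without number 48, and 0 within either prefix, without number 40 or 49 and at an adjusted p under 0.05; leaving out each pup gave 1 to 6 (6 without WSD male 4 or 6). Members that differed between the sexes on LFD (2) were 1 with the interquartile filter, no trend, G074, without number 37, without LFD male 6 and WSD male 1 and with the mean of probe sets, and 0 with the replicate block, G073, without number 49 or 50 and at an adjusted p under 0.05; leaving out each pup gave 1 to 2. On WSD (10) they were 6 with the interquartile filter, 1 within G073, 2 within G074, 1 without number 40 and 0 at an adjusted p under 0.05; leaving out each pup gave 4 to 13. The members' median in males (0.0529) was 0.0295 without number 40 and 0.0787 without number 48, and 0.0339 to 0.0647 without each pup; in females (0.00436) it was -0.0113 to 0.0172. No member fell in males under any of these. The replicate numbers pair no pups: same-numbered pups' deviations correlated at -0.25 to 0.11 in males and -0.21 to 0.26 in females, and 0 of 6 and 1 of 6 correlated best with their own number. The number of pups limits what can be told from spread: in males Rpl22 (0.20, SE 0.08) did not pass.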
